A study of Mus musculus with 3 samples.

Results

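Oxidative phosphorylation genes were followed through 3 libraries of single cells sorted from the mouse lumbar spinal cord. The set held every gene whose symbol starts with Ndufa, Ndufb, Ndufc, Ndufs, Ndufv, Uqcr, Cox4i, Cox5, Cox6, Cox7, Cox8, Atp5, Sdh or mt-, without pseudogene symbols and without the Ndufaf assembly factors. This rule took 102 of the 27998 genes of the deposited table, 13 encoded in the mitochondrial genome and 89 encoded in the nucleus. The name holds for most but not all of them, since the symbols also cover 4 assembly factors of succinate dehydrogenase (Sdhaf1 to Sdhaf4). They also cover Atp5s and Atp5sl, which were not taken as subunits but were placed with complex V by their symbols.

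All animals were young adult C57BL/6 mice, heterozygous for Cx3cr1-creER-yfp, in which the Cx3cr1 promoter drives creER and the fluorescent protein YFP in microglia and other Cx3cr1 positive cells. YFP (+) cells came from the lumbar cord of naive animals, of animals 24 h after sciatic nerve transection and of animals 48 h after it, with 3 animals pooled per group per the study's methods and 1 library per group. Barcodes end in 1, 2 or 3 by library, but the labels do not say which ending belongs to which group. The libraries are therefore called library 1, 2 and 3, their time points are unknown, no difference below is a difference between named time points, and no test was possible with 1 library per group. Intervals are exact 95% intervals (Poisson for levels, Clopper-Pearson for shares, conditional binomial for ratios). They hold counting error alone, without the variation between animals, and those of UMI sums also leave out the spread between cells.

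Library 1 held 609 cells with a median of 2218 unique molecular identifiers (UMIs, each marking 1 captured transcript end) per cell, against 3591 and 3322 cells with medians of 5952 and 5742 in libraries 2 and 3. To compare at equal depth each cell was thinned to 2000 UMIs by random draws without replacement, which left 408, 3569 and 3284 cells and left out 201, 22 and 38 shallower ones. Levels below are CPM, UMIs scaled to 1000000 per library, from these thinned UMIs. As only transcript ends were counted, levels were not divided by gene length. Of the barcodes, 25 occur in more than 1 library. Markers of cell types were counted without thinning. All 10 microglia markers were found, with a summed level of 22976 to 28093 CPM over all cells of a library. The summed level was 3.32 to 8.93 for 7 monocyte markers, 0.745 to 2.28 for 7 perivascular macrophage markers (Cd163 and Lyve1 at 0), 0.860 to 1.49 for 5 neuronal and 15.0 to 35.0 for 4 endothelial markers (Cldn5 at 0). It was 142 to 146 for 5 oligodendrocyte and 101 to 164 for 5 astrocyte markers, 0.0506 to 14.1 for 5 T and NK cell markers (Cd3e at 0), and 0 to 20.3 for 6 globins. Cells with UMIs of at least 2 astrocyte markers were 0%, 0.613% and 0.421% of libraries 1, 2 and 3. For at least 2 oligodendrocyte markers it was 2.96%, 17.2% and 14.7%. These percentages are of all cells at unequal depth, so they cannot be compared between libraries, and the part of depth in them was not tested. The part of transcripts from other cell types in the results was not tested.

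Oxidative phosphorylation is the stepwise oxidation of NADH and succinate in the inner mitochondrial membrane. Complex I (NADH dehydrogenase), complex II (succinate dehydrogenase), complex III (the cytochrome bc1 complex) and complex IV (cytochrome c oxidase) pass electrons to oxygen, and complex V (ATP synthase) uses the resulting proton gradient to make ATP. Complex II is encoded by nuclear genes alone, whereas the other complexes join nuclear subunits with subunits made inside the mitochondrion from its own circular genome, so that transcripts of separate genomes have to supply each of them. Microglia, the resident macrophages of the central nervous system, are known to use oxidative phosphorylation at rest and to shift their energy metabolism when activated.

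Mitochondrial and nuclear members took up similar parts of the transcripts, and both were lowest in library 1 and highest in library 2. The 13 mitochondrial genes made up 0.967% (95% interval 0.946 to 0.989%) of the thinned UMIs in library 1, where libraries 2 and 3 had 1.60% (95% interval 1.59 to 1.61%) and 1.27% (95% interval 1.26 to 1.27%). The 89 nuclear genes made up 1.17% (95% interval 1.14 to 1.19%), 1.70% (95% interval 1.69 to 1.71%) and 1.31% (95% interval 1.31 to 1.32%). None of these intervals overlap between libraries within a class. Per cell of 2000 UMIs, the median was 18, 31 and 24 mitochondrial UMIs and 23, 33 and 26 nuclear UMIs in libraries 1, 2 and 3. Library 2 was at 1.66 times library 1 in mitochondrial UMIs (1.62 to 1.70) and at 1.46 times in nuclear UMIs (1.43 to 1.49). Library 3 was at 1.31 (1.28 to 1.34) and 1.13 times library 1 (1.103 to 1.15), and was at 0.789 and 0.773 times the level of library 2.

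The balance between the genomes differed less than the totals. For each nuclear UMI there were 0.829 mitochondrial UMIs for library 1 (95% interval 0.804 to 0.854), against 0.943 for library 2 (0.935 to 0.951) and 0.963 for library 3 (0.954 to 0.972). Library 1 was below the other libraries by more than counting error. Libraries 2 and 3 differed by little, and their intervals did not overlap. These also stayed apart without thinning, thinned to 4000 UMIs, with subunits only and without members whose ends have copies. They did overlap with another random draw, thinned to 1000 UMIs and in cells of 2000 to just under 4000 UMIs. In those cells library 2 was the higher one, at 1.02 against 1.004. Whether libraries 2 and 3 differed beyond counting error thus depended on the settings. The value of library 1 depended on its shallow cells, as it was 0.939 (0.918 to 0.961) over all cells without thinning, where libraries 2 and 3 were at 0.942 and 0.956. It also depended on members whose transcript ends occur in other annotated genes (described below). Without these the ratio was 0.416 (0.399 to 0.434), 0.416 (0.411 to 0.421) and 0.429 (0.423 to 0.435), and library 1 no longer differed from library 2 beyond counting error. The members kept still include mt-Atp8, whose level was highest in library 1, with 220, 765 and 695 UMIs in libraries 1, 2 and 3. The part of mt-Atp8 in this match was not tested.

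The ratio also differed between shallow and deep cells of the same library. Cells under 2000 UMIs had 1.45, 1.37 and 2.44 mitochondrial UMIs per nuclear UMI in libraries 1, 2 and 3, from 201, 22 and 38 cells. Between 2000 and just under 4000 UMIs the ratio was 0.840, 0.999 and 0.999. The shallow cells were thus the richest in mitochondrial transcripts in each library, and the 4 cells with over 10% mitochondrial UMIs were all shallow cells of library 1. The nuclear members went the other way. Their share was lowest in the shallow cells of each library, at 0.962%, 1.56% and 1.03%, and highest in the deepest, at 1.45% in the 9 cells of library 1 over 4000 UMIs and 1.86% and 1.41% in cells of 8000 and more UMIs in libraries 2 and 3.

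**Figure D1:**
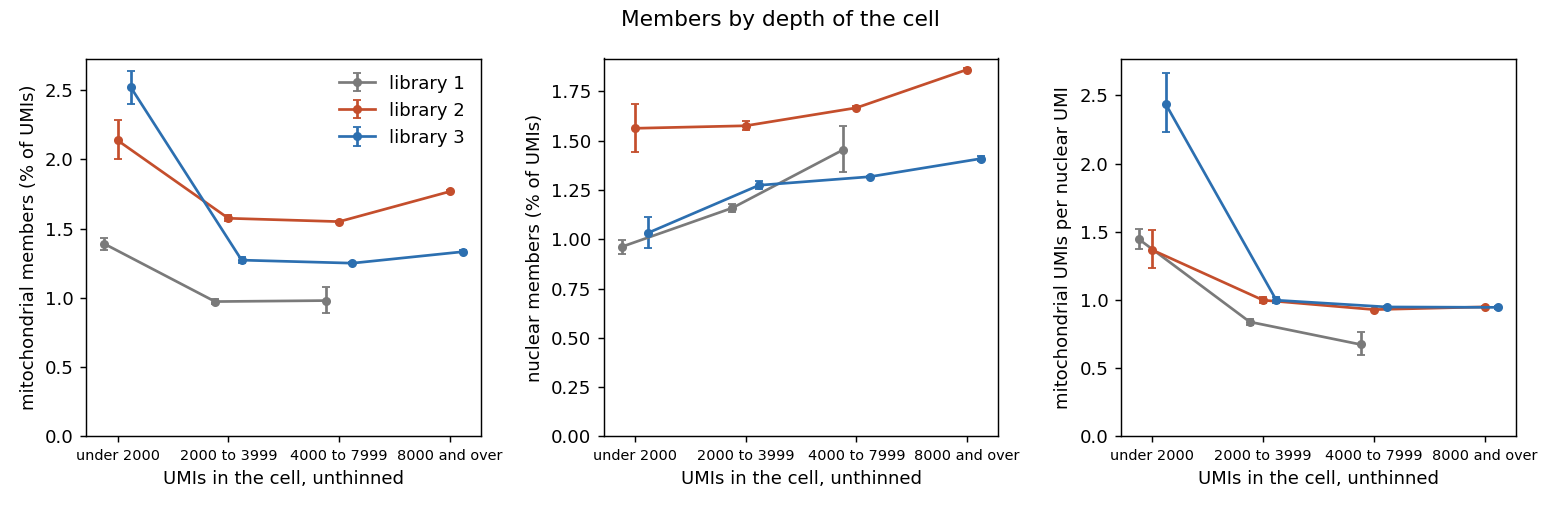
Share of UMIs from mitochondrial members (left), from nuclear members (middle) and mitochondrial UMIs per nuclear UMI (right) by unthinned UMIs of the cell, with exact 95% intervals and 1 line per library. In each library the cells under 2000 UMIs have the highest ratio, between 1.37 and 2.44.

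Few cells of library 1 were deep, so the libraries were also compared within cells of 2000 to just under 4000 UMIs alone, thinned as before (399, 351 and 372 cells). The mitochondrial share was then 0.966%, 1.60% and 1.28%, and the nuclear share 1.15%, 1.58% and 1.28%. Library 2 was at 1.66 times library 1 (1.61 to 1.71) in mitochondrial and at 1.38 times (1.34 to 1.41) in nuclear UMIs. The order of the libraries was kept for both classes. Even in this band the median unthinned depth was 2481 UMIs in library 1 and 3513 and 3481 in libraries 2 and 3, so depth and library cannot be fully told apart.

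The spread between cells was far wider for mitochondrial than for nuclear members. In library 1 the standard deviation over the 408 cells was 11.0 mitochondrial UMIs where counting alone would give 4.40, and 5.88 nuclear UMIs where it would give 4.83. In library 2 the values were 10.1 against 5.66 and 6.69 against 5.83, and in library 3 9.54 against 5.03 and 5.54 against 5.13. Mitochondrial transcripts therefore varied from cell to cell well beyond counting error and nuclear ones only a little. The intervals given for mitochondrial shares and ratios leave out this spread and are too narrow for it. When the 13 mitochondrial genes were split into alternate genes along the genome, the sums of the sets had a Spearman rho of 0.650, 0.379 and 0.440 over the cells of libraries 1, 2 and 3. The same split of the nuclear genes gave 0.0757, 0.0987 and 0.0575, and mitochondrial against nuclear sums gave 0.131, 0.103 and 0.0648. The points are cells of 1 library, which share its preparation, and counts per nuclear gene are sparse, so the low values are no finding.

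**Figure D2:**
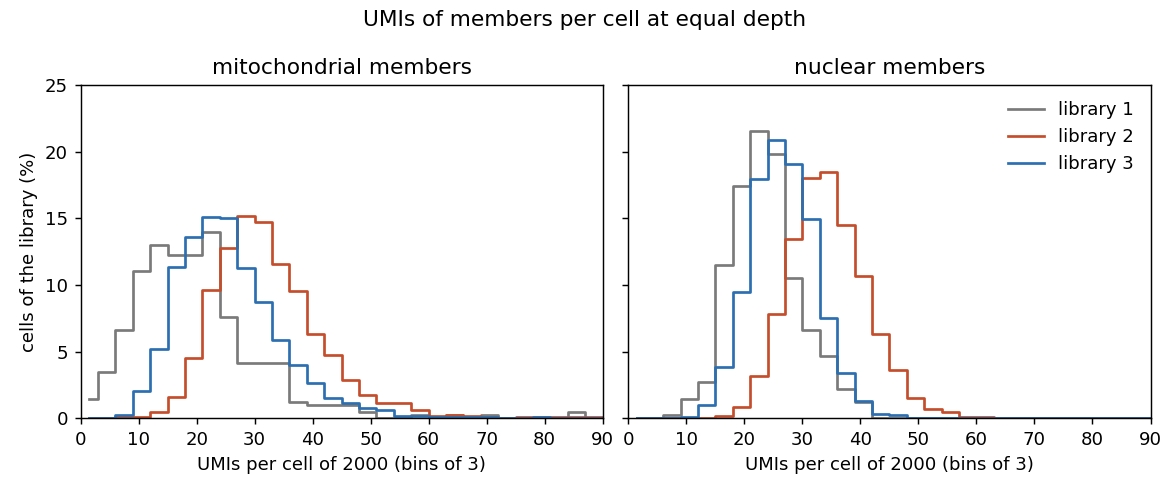
Cells of each library (percent, in bins of 3 UMIs) by UMIs of mitochondrial members (left) and nuclear members (right) in cells thinned to 2000 UMIs. The mitochondrial curves are the broader ones and library 2 lies to the right in both panels, while 12 cells with more than 90 mitochondrial UMIs are outside the axis.

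The mitochondrial genes were not present in equal amounts although the plus strand of the circle is transcribed as a long precursor. Of the 13 genes, 12 lie on the plus strand and mt-Nd6 on the minus strand. The ATP synthase subunit mt-Atp6 (ENSMUSG00000064357, chromosome M, 7927 to 8607, plus strand, GENCODE M21 on GRCm38, whole gene an exon) was the highest at 1789, 3459 and 2633 CPM in libraries 1, 2 and 3. The cytochrome c oxidase subunit mt-Co3 was next at 1519.6, 3106 and 2544, and its catalytic partner mt-Co1, which carries the oxygen binding site, had 1425, 2143 and 1672. Library 2 was highest and library 1 lowest for each of these genes. The complex I subunit mt-Nd1 was at 999, 2137 and 1589.5, cytochrome b of complex III (mt-Cytb) at 1053, 1555 and 1228, and mt-Co2, which receives electrons from cytochrome c, at 893, 1516 and 1182. These 6 genes showed the same order of libraries.

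The complex I subunit mt-Nd4 was at 779, 987 and 805 CPM. Its fellow subunits mt-Nd2 (at 445, 460.5 and 426), mt-Nd4l (186, 215 and 162), mt-Nd5 (158, 185 and 143) and mt-Nd3 (148, 152 and 156) were lower. For mt-Nd2, mt-Nd4l and mt-Nd5 library 3 was the lowest and its interval lay below that of library 2 but overlapped that of library 1, and for mt-Nd3 the intervals overlapped in all 3 libraries. The least abundant, mt-Nd6, was at 8.58, 9.39 and 5.63, below the floor of 50 used for calls. The rank of the 13 genes was much the same in each library, with mt-Atp6, mt-Co3 and mt-Co1 in the first 3 places and mt-Nd6 last.

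The exception was mt-Atp8 (ENSMUSG00000064356, chromosome M, 7766 to 7969, plus strand), which encodes a small subunit of the membrane part of ATP synthase. Its level was 269.6, 107 and 106 CPM in libraries 1, 2 and 3, and no other mitochondrial gene had its highest level in library 1. It was found in 39.0%, 18.5% and 18.4% of cells. Library 2 was at 0.398 (95% interval 0.342 to 0.464) and library 3 at 0.392 (0.337 to 0.459) times library 1, each past 1.5-fold downward. It ranked number 9 of 13 in library 1 and number 12 in libraries 2 and 3. No cell held more than 5 thinned UMIs in library 1, and 159 of its 408 cells had 1 or more, so the level did not rest on a few cells. Its windows of read length had no exact copy among other annotated transcripts, but sequence outside annotated transcripts was not searched.

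mt-Atp8 and mt-Atp6 are read from a shared transcript, as are mt-Nd4l and mt-Nd4, and both pairs of reading frames overlap. The stretches are shown on the plus strand in GRCm38, with the bases that belong to both genes in capitals, because a read that covers these bases overlaps both genes.
mt-Atp8 and mt-Atp6, chrM:7880-8009: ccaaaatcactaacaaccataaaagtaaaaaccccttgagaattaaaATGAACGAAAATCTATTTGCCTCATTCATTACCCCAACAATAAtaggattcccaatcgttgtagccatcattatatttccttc
mt-Nd4l and mt-Nd4, chrM:10114-10213: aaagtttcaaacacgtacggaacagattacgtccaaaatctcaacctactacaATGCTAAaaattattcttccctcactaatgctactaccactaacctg
The first pair shares 43 bases (7927 to 7969) and the second 7 (10167 to 10173). For each 100 mt-Atp6 UMIs there were 15.1 (13.02 to 17.4) mt-Atp8 UMIs in library 1, whereas library 2 had 3.10 (2.88 to 3.33) and library 3 had 4.02 (3.72 to 4.34), and in the band of 2000 to just under 4000 UMIs 16.4 (14.2 to 18.8), 2.57 (1.97 to 3.29) and 2.87 (2.18 to 3.72). The other pair did not show such a gap, with 23.9 (19.9 to 28.6), 21.8 (20.6 to 23.0) and 20.1 (18.8 to 21.5) mt-Nd4l UMIs for each 100 of mt-Nd4. The part of read assignment in the mt-Atp8 values was not tested.

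**Figure D3:**
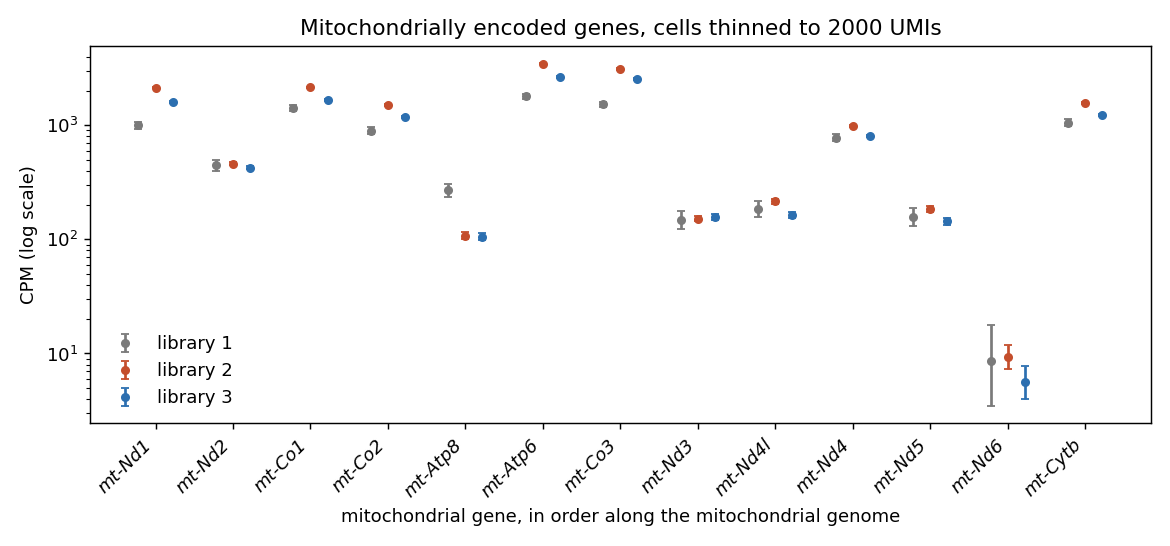
CPM (log scale) of the 13 mitochondrial genes in their order along the mitochondrial genome, cells thinned to 2000 UMIs, with exact 95% Poisson intervals per library. Library 2 is highest for most genes, while mt-Atp8 is highest in library 1.

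Copies of mitochondrial genes in the nuclear genome limit these values. Of the windows of 91 bases (the read length in the methods) in the last 500 bases of the transcript, an exact copy in another annotated gene's transcripts was found for 99.8% in mt-Co3, 99.3% in mt-Atp6, 99.3% in mt-Co2, 98.5% in mt-Nd4l, 97.7% in mt-Nd3 and 94.9% in mt-Co1, each time in an unprocessed pseudogene. For mt-Nd2 it was 9.51%, and for the other 6 mitochondrial genes 0. Only annotated transcripts were searched, so a copy elsewhere in the genome would be missed. How the counting treated reads that match both is not given in the sources used here, so levels compared between these 2 sets of genes are uncertain. Among nuclear members, 19 of 89 had copies in over 10% of windows, in pseudogenes, antisense genes or overlapping neighbours, led by Atp5g2 (43.4%), Atp5g1 (32.1%) and Atp5o (29.1%).

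Between libraries, a gene was called where its levels differed by at least 1.5-fold (pseudocount of 1 CPM) among the 3224 genes with a mean of at least 50 CPM. This floor was passed by 85 members, 12 of 13 mitochondrial and 73 of 89 nuclear. The complex I subunit Ndufv1 was just above it at 50.04 and the complex II anchor Sdhc just below at 49.96. The comparisons share libraries and are not independent of each other. In library 2 over library 1, 31 nuclear members were higher and 0 lower, and 5 mitochondrial members (mt-Nd1, mt-Co3, mt-Atp6, mt-Co2 and mt-Co1) were higher and 1 (mt-Atp8) lower, where 12.5% of all genes tested were higher and 11.1% lower. The call of mt-Co1 lay at the threshold, with a ratio of 1.504 (1.42 to 1.60). Without thinning or with another seed, 4 mitochondrial members were higher. The median log2 ratio was 0.51 for nuclear and 0.45 for mitochondrial members against -0.02 for all genes. Above 0 were 67 of 73 nuclear members, against 48.5% of all genes.

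In library 3 over library 1, 7 nuclear members were higher and 1 lower, and 2 mitochondrial members (mt-Co3 and mt-Nd1) were higher and 1 (mt-Atp8) lower, where 10.9% of all genes were higher and 12.3% lower. Above 0 were 55 of 73 nuclear and 8 of 12 mitochondrial members, against 48.2% of all genes. The medians were 0.14 for nuclear and 0.15 for mitochondrial members against -0.02, and with cells thinned to 4000 UMIs, which left 9 cells in library 1, they were -0.18 and -0.05. In library 3 over library 2, 8 nuclear members were lower and 0 higher, and no mitochondrial member was called in either direction, where 3.69% of all genes were higher and 2.67% lower. The medians were -0.34 and -0.35 against -0.02. In this pair 5 of 73 nuclear and 1 of 12 mitochondrial members were above 0, against 46.1% of all genes. Library 2 held the highest level for 63 of 73 nuclear members, library 1 for 6 and library 3 for 4. How many of all genes tested were highest in each library was not counted. These numbers thus cannot be read as particular to the members.

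**Figure D4:**
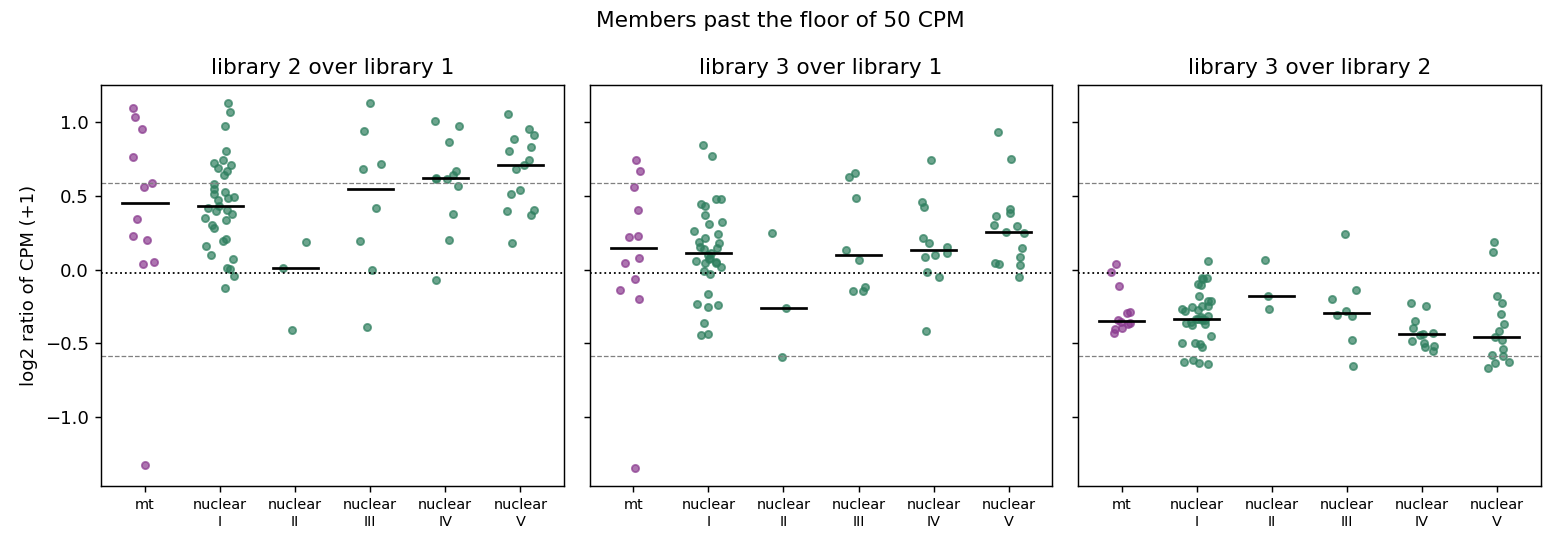
Log2 ratio of CPM (pseudocount 1) of each member past the floor for 3 pairs of libraries, mitochondrial members first and nuclear members by complex, with bars at the medians. The dotted line is the median of all 3224 genes tested and the dashed lines mark 1.5-fold, and in library 2 over library 1 the medians of complexes III, IV and V lie at 0.55, 0.62 and 0.71 while that of complex II is at 0.01.

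Complex I takes electrons from NADH and is the largest complex, with 36 nuclear members by these symbols (Ndufa4 and Ndufa4l2 were counted with complex IV), of which 35 passed the floor. Their summed level was 3972, 5413 and 4267 CPM in libraries 1, 2 and 3, and library 2 over library 1 was 1.36 (1.31 to 1.41). Past 1.5-fold, 10 of 35 were higher in library 2 than in library 1, where 12.5% of all genes tested were. In library 3, 2 were higher than in library 1 and 4 lower than in library 2, where 10.9% and 2.67% of all genes tested were. The accessory subunit Ndufa2 was the highest at 208, 336 and 238, and Ndufa13 (ENSMUSG00000036199, chromosome 8, 69894180 to 69902558, minus strand), a further accessory subunit, followed at 189, 317 and 203. Both were highest in library 2. Ndufv1, which carries the NADH binding site, was the lowest past the floor at 34.3, 56.7 and 59.1, and differed from the pattern in that libraries 2 and 3 were alike and library 1 lower, library 3 over library 1 being 1.72 (1.17 to 2.63).

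The highest ratio of library 2 over library 1 among nuclear members past the floor was that of Ndufb6, an accessory subunit of the membrane arm, at 38.0, 84.2 and 69.1 CPM and a ratio of 2.22 (1.54 to 3.29). Its last transcript bases overlap those of Smim27, so its counts are uncertain. Ndufc1, a further accessory subunit, was at 62.5, 132 and 85.6 with a ratio of 2.12 (1.60 to 2.87). Against this, Ndufb3 was at 98.0, 89.9 and 72.2 and the X-linked Ndufa1 at 85.8, 86.2 and 62.7. For both of these accessory subunits libraries 1 and 2 overlapped and library 3 was lowest, at 0.736 (0.580 to 0.945) and 0.731 (0.566 to 0.956) times library 1. Ndufs1, an iron-sulfur subunit, was at 33.1, 26.5 and 32.4 and below the floor.

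Complex II, which links the citric acid cycle to the respiratory chain, was the complex with the least difference between libraries. Its 8 members summed to 495, 503 and 467 CPM, and library 2 over library 1 was 1.02 (0.916 to 1.13), an interval that includes 1 and does not reach the intervals of the other complexes. Library 3 over library 2 was 0.928 (0.884 to 0.974). The iron-sulfur subunit Sdhb (ENSMUSG00000009863, chromosome 4, 140961203 to 140979193, plus strand) was at 164, 165 and 137, and the catalytic flavoprotein Sdha at 90.7, 103 and 108. The membrane anchor Sdhd was at 68.6, 51.4 and 45.2, highest in library 1, and library 3 was at 0.659 (0.494 to 0.893) times library 1, the only nuclear member past both the floor and 1.5-fold downward in that pair. This call lay at the threshold, and 0 nuclear members were lower when ratios were centred on the median of all genes. The other anchor Sdhc was at 47.8, 53.5 and 48.6. The assembly factors Sdhaf1 (40.4, 43.4 and 41.6), Sdhaf4 (42.9, 43.9 and 38.7), Sdhaf2 (30.6, 30.7 and 30.9) and Sdhaf3 (9.80, 11.3 and 16.6) were all below the floor.

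Complex III passes electrons from ubiquinol to cytochrome c. All 8 nuclear members passed the floor, with a summed level of 1293, 1927 and 1526 CPM and a ratio of library 2 over library 1 of 1.49 (1.40 to 1.59). The small subunit Uqcr11 (ENSMUSG00000020163, chromosome 10, 80402997 to 80406830, minus strand) was the highest at 183, 399.8 and 287 and also among the members with the widest gap, library 2 over library 1 being 2.19 (1.86 to 2.60). The hinge protein Uqcrh was at 252, 289 and 233. The small subunit Uqcr10 was at 158, 260.3 and 165, so that libraries 1 and 3 overlapped and library 2 stood above both, library 3 over library 2 being 0.635 (0.588 to 0.684). The core protein Uqcrc2 went the other way, at 82.1, 62.6 and 74.3, lowest in library 2, with library 3 over library 2 at 1.19 (1.04 to 1.35). Its last bases overlap transcripts of Pdzd9.

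Complex IV reduces oxygen, and its nuclear subunits surround the 3 mitochondrial ones. The 20 nuclear members summed to 3011, 4529 and 3344 CPM, with library 2 over library 1 at 1.504 (1.44 to 1.57), and the 3 mitochondrial ones to 3838, 6765 and 5398, at 1.76 (1.70 to 1.83). Of 12 nuclear members past the floor, 8 were higher in library 2 than in library 1 and 1 was higher in library 3 than in library 1. Of all genes tested, 12.5% and 10.9% were higher in these pairs. The regulatory subunit Cox4i1 (ENSMUSG00000031818, chromosome 8, 120668222 to 120674207, plus strand) was the highest nuclear member of all at 434, 792 and 584, in 55.4%, 78.5% and 68.5% of cells. Cox8a, a small membrane subunit, was at 337, 515 and 364, and Cox7b, the lowest past the floor, at 124, 142 and 119.7. All 3 were highest in library 2. For Cox7b the interval of library 1 overlapped those of both other libraries, and library 3 was at 0.842 (0.766 to 0.925) times library 2.

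Subunits of complex IV exist as tissue isoforms, and the cells used the general ones almost alone. Over all cells without thinning, Cox4i1 had 99.9% (95% interval 99.9 to 99.96%) of the UMIs of its pair, and Cox4i2, known from lung, had 19 UMIs of 31846. Cox7a1, the isoform of heart and skeletal muscle, had 48 UMIs of 26919 in its family. Cox7a2 had 42.1% of them (95% interval 41.5 to 42.7%) and Cox7a2l 57.8% (95% interval 57.2 to 58.3%). Cox7a2l was grouped with this family by its symbol, and these shares do not show that it replaces Cox7a2. Cox6b2, an isoform of testis, had 0.900% (95% interval 0.764 to 1.05%) of the UMIs of Cox6b1 and Cox6b2, and the hypoxia-induced Ndufa4l2 had 6 UMIs against 14654 of Ndufa4. No UMI was counted for Cox7b2, Cox8b and Cox8c, and a count of 0, taken as a limit of 3 counts, allows up to 0.0472% of the UMIs of its family for Cox7b2 and 0.0146% for each of Cox8b and Cox8c.

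Cox6a2 was the exception. This gene (ENSMUSG00000030785, chromosome 7, 128205435 to 128206387, minus strand) encodes the isoform of subunit VIa known from heart and skeletal muscle, and it was counted in 957 of 7522 cells with 1112 UMIs, or 6.98% (95% interval 6.59 to 7.39%) of the UMIs of Cox6a1 and Cox6a2. At equal depth its level was 13.5, 24.1 and 22.8 CPM, with 11, 172 and 150 UMIs. Its part of the pair was 5.26% (2.66 to 9.22%), 6.08% (5.23 to 7.03%) and 7.68% (6.54 to 8.95%), which overlap. Without thinning, 131 cells held 2 or more UMIs and the highest held 5. Its last transcript bases have no exact copy among other annotated transcripts. No other cell type was at hand in these libraries to measure the level that free RNA would give.

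Complex V makes ATP, and its 17 nuclear members had the widest gap of the nuclear groups. They summed to 2902, 4628 and 3541 CPM with library 2 over library 1 at 1.59 (1.53 to 1.66). Past 1.5-fold, 9 of 15 past the floor were higher in that pair, against 12.5% of all genes tested. The small subunit Atp5e of the rotor stalk (ENSMUSG00000016252, chromosome 2, 174461072 to 174464105, minus strand) was the highest at 310.1, 508 and 328, followed by the membrane subunit Atp5j2 at 257, 486 and 306. In both, libraries 1 and 3 were close and library 2 stood above them, and Atp5j2 had the lowest ratio of library 3 over library 2 among nuclear members past the floor, 0.630 (0.596 to 0.666).

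The catalytic head of ATP synthase behaved otherwise. The catalytic beta subunit Atp5b (ENSMUSG00000025393, chromosome 10, 128083273 to 128090391, plus strand) was at 209.6, 352 and 401 CPM and its partner, the alpha subunit Atp5a1, at 217, 246 and 267. Both were highest in library 3. Library 3 over library 1 was 1.91 (1.64 to 2.25) for Atp5b, the highest of the nuclear members past the floor in that pair, and library 3 over library 2 was 1.14 (1.08 to 1.20) for Atp5b and 1.09 (1.02 to 1.16) for Atp5a1. Only 5 nuclear members past the floor were above 0 in the latter pair (Uqcrc2, Atp5b, Atp5a1, Sdha and Ndufv1), and for Sdha and Ndufv1 the interval of the ratio includes 1.

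The ring subunit c is encoded by 3 genes with the same mature protein, Atp5g1, Atp5g2 and Atp5g3. Their levels were 161, 334 and 270.4 for Atp5g1, 246, 325 and 252 for Atp5g2 and 68.6, 91.2 and 66.2 for Atp5g3. Atp5g1 made up 33.8% (29.1 to 38.7%) of the 3 genes' UMIs in library 1, against 44.5% (43.2 to 45.9%) of them for library 2 and 45.9% (44.4 to 47.5%) for library 3, so that Atp5g2 led in library 1 and Atp5g1 and Atp5g2 were close in the others. Both have copies in pseudogenes. Below the floor were Atp5sl at 44.1, 49.7 and 26.5 and Atp5s at 12.3, 3.22 and 4.57, the latter highest in library 1 on 10 UMIs, with an interval that overlaps that of library 3.

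**Figure D5:**
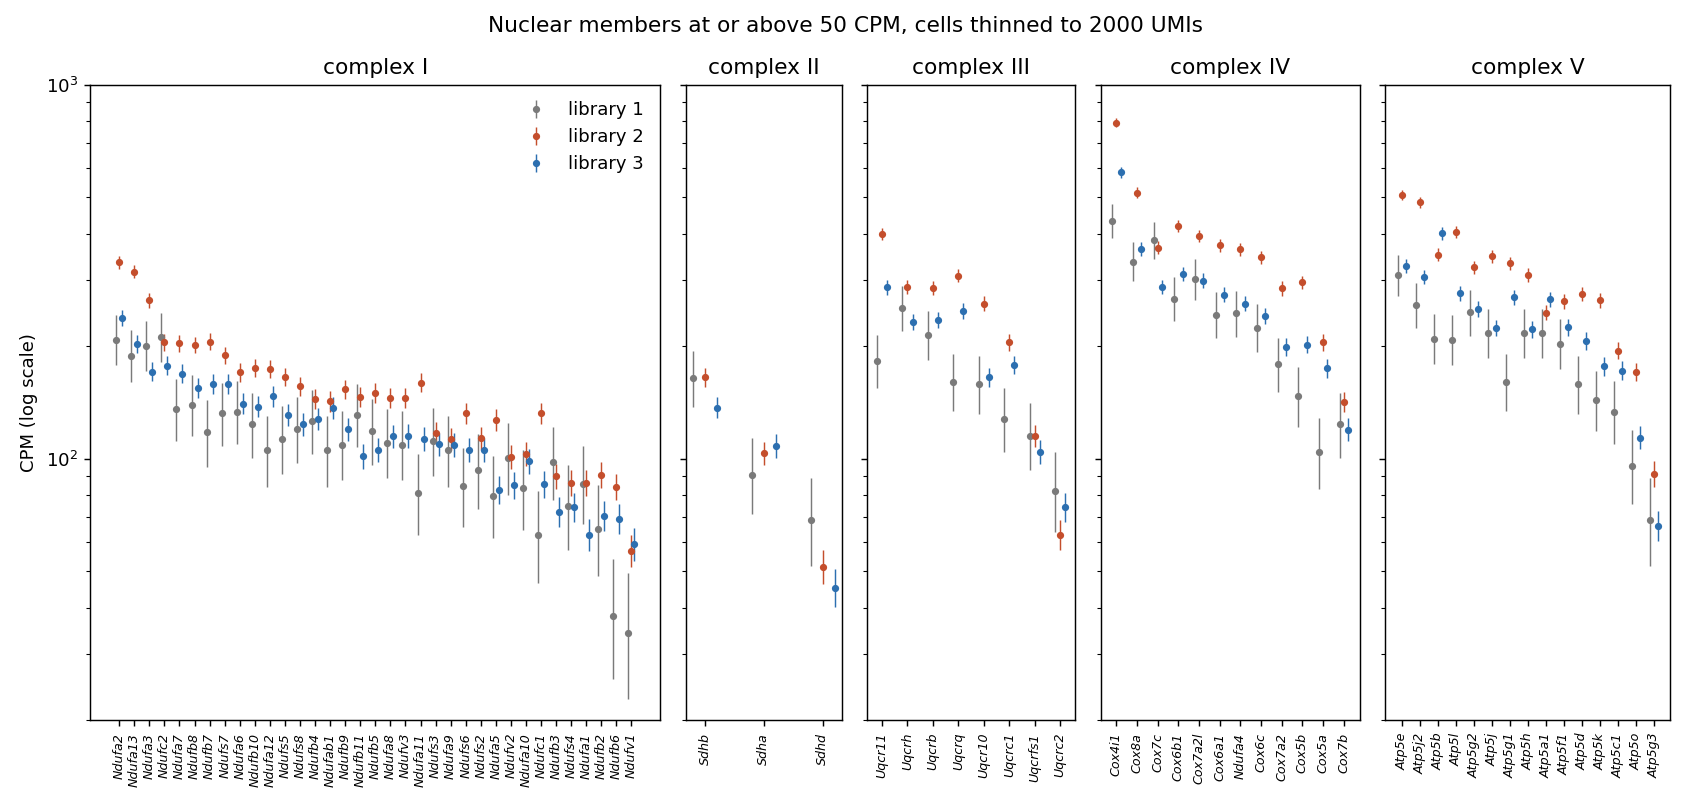
CPM (log scale) of the 73 nuclear members past the floor, by complex and ordered by mean level, with exact 95% Poisson intervals per library. Library 2 is highest for most members of complexes I, III, IV and V, while Atp5b, Atp5a1 and Sdha are highest in library 3 and Sdhd is highest in library 1.

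The nuclear members lie on 19 chromosomes, with up to 11 on 1 chromosome (chromosome 7). Promoters were taken from RefSeq (GRCm38.p6, 250 bases before to 50 after the start) for 71 members. The core GCGCATGC of the site of NRF1, a regulator of respiratory genes, was found on either strand in 10 of 71 (14.1%) against 3.05% of all 27025 genes with a promoter, the ETS core CCGGAAG in 19 (26.8% against 9.93%) and the YY1 site AAGATGGC in 9 (12.7% against 3.19%). These motifs can overlap, and 32 of 71 members held at least 1 of them, or 45.07% against 14.89%. AAGGTCA, bound by estrogen-related receptors, was found in 11.3% against 5.38%, and the TATA box TATAAA in 11.3% against 15.7%. The CCAAT box was near the background, at 42.2% against 41.1%, and the GC box GGGCGG was at 43.7% against 38.2%. The background holds all genes with a promoter, whether counted in these cells or not. Genes past the floor were not taken as a background, so these gaps cannot be read as particular to the members.

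Stretches with the NRF1 core in capitals (GCGCATGC or its reverse complement GCATGCGC, GRCm38.p6) are shown for 5 members that the levels above describe or whose complexes differed, to set the same letters side by side.
Uqcr11, chr10:80406782-80406861, minus strand: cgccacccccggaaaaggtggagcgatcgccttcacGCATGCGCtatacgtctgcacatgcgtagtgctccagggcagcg
Sdhb, chr4:140961181-140961260, plus strand: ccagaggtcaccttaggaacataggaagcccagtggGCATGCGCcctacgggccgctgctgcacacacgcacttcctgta
Cox6a1, chr5:115349075-115349156, minus strand: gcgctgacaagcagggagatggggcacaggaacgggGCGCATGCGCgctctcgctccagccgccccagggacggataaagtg
Atp5l, chr9:44920939-44920992, minus strand: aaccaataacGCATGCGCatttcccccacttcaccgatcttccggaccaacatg
Atp5g2, chr15:102671044-102671125, minus strand: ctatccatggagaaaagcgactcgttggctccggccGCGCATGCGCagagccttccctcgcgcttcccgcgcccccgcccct
The core lies at any place from -240 bases (Atp5l) to 30 bases (Uqcrc1) from the start site. Where Cox6a1 and Atp5g2 hold 10 capital letters, the motif and its reverse complement overlap. The 29 members past the floor with at least 1 of the 3 motifs had a median log2 ratio of 0.61 in library 2 over library 1 and 15 past 1.5-fold, against 0.48 and 12 of 34 without. Of all genes tested, 12.5% were higher in that pair. In library 3 over library 1 the medians were 0.112 with and 0.108 without a motif. Past 1.5-fold, 2 and 4 members were higher, where 10.9% of all genes tested were. In library 3 over library 2 the medians were -0.371 and -0.335. Sdhb and Uqcr11 both hold the same 8 letters of the NRF1 core. In library 2 over library 1 their ratios were 1.01 and 2.19. The 10 members with that core had a median log2 ratio of 0.65 in that pair. Past 1.5-fold, 6 of them were higher, where 12.5% of all genes tested were. Other genes with these motifs were not counted, and any link between motifs and ratios was not tested.

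Other genes of mitochondrial respiration were taken from lists. A first list held 8 genes linked to oxidative phosphorylation outside the symbol rule (Cyc1, Cycs, Usmg5, Atpif1, Uqcc1, Uqcc2, Uqcc3 and Hccs), not all of them subunits. Of these, 6 passed the floor and 3 were higher in library 2 than in library 1, against 12.5% of all genes tested. Among the 3 was Cyc1, which encodes cytochrome c1 of complex III, at 78.4, 146 and 153 CPM. The complex III assembly factor Uqcc2 was at 74.8, 168 and 127, and Atpif1, which encodes the inhibitor of ATP synthase, at 269.6, 493 and 308. Atpif1 had the order of Atp5e and Atp5j2, with library 2 above both others, while Cyc1 was alike in libraries 2 and 3, as Ndufv1 was. Usmg5 had the lowest ratio of library 2 over library 1 in this list, at 154.4, 154.1 and 117.7 CPM. Its library 3 was at 0.762 (0.631 to 0.928) times library 1. A separate list of 34 assembly factors did not hold Uqcc1, Uqcc2 and Uqcc3. Of these 34, 6 passed the floor, with a median log2 ratio of -0.03 in library 2 over library 1. Past 1.5-fold in that pair was 1 of them (Coa3, 1.59 (1.28 to 1.99)). Cox17 had the lowest ratio of these in that pair, 0.687 (0.566 to 0.840).

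The mitochondrial ribosome, which makes the 13 mitochondrial proteins, had 47 of 77 genes past the floor. Of these, 12 were higher and 0 lower in library 2 over library 1, where 12.5% and 11.1% of all genes tested were, and the median was 0.43. Its summed UMIs were 0.420%, 0.561% and 0.510% of the total. In library 3 over library 1 its median was 0.29 with 9 higher and 1 lower, where 10.9% and 12.3% of all genes tested were. The cytosolic ribosome, which makes the nuclear subunits, had 14 higher and 2 lower of 76 and a median of 0.32 in library 2 over library 1. The shares of all genes in that pair are the 12.5% and 11.1% given above. Its summed shares of UMIs were 8.76%, 11.0% and 8.75%. The highest and lowest ratios in that pair were those of Mrpl12 (2.43 (1.84 to 3.26)) and Mrpl40 (0.817) of the mitochondrial and Rpsa (2.16 (1.94 to 2.41)) and Rpl27 (0.542 (0.496 to 0.593)) of the cytosolic ribosome.

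The citric acid cycle had 4 of 13 genes past the floor. Of these, malate dehydrogenase Mdh2 was past 1.5-fold in library 2 over library 1, at 1.72 (1.37 to 2.18). It was also past it in library 3 over library 1, at 1.64 (1.31 to 2.09). Of all genes tested, 12.5% and 10.9% were higher in these pairs. Suclg1 was the lowest of the 4 in library 2 over library 1, at 0.899 (0.686 to 1.197). The 7 carrier and channel genes had 0 called in any pair. Of all genes tested, 2.67% to 12.5% were called per pair and direction, so 0 of 7 is no result about these genes. Vdac3 had their highest ratio of library 2 over library 1, 1.42 (1.11 to 1.84). The uncoupling protein Ucp2 was at 228, 216 and 186 and the porin Vdac1 at 95.6, 90.1 and 85.3. Of the genes that express the mitochondrial genome, 2 of 20 passed the floor, and Ssbp1, which binds single-stranded mitochondrial DNA, was at 136, 84.9 and 81.8 and lower in library 2 than in library 1 by a ratio of 0.624 (0.509 to 0.771). The regulators Myc and Yy1 were the only ones of 9 past the floor, with Myc at 33.1, 40.5 and 92.3 and highest in library 3.

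The study asked how microglia divide after nerve injury, so cells of library 2 with at least 2 UMIs of 15 proliferation genes (1672 thinned cells) were set beside those with 0 (764). Libraries 1 and 3 had 3 and 25 such cells, under the minimum of 50. The positive cells held 32.9 mitochondrial UMIs per cell of 2000 (95% interval 32.6 to 33.1) against 31.4 (31.0 to 31.8), a ratio of 1.05, and 34.4 nuclear UMIs (34.2 to 34.7) against 33.5 (33.1 to 34.0), a ratio of 1.03. These gaps were far smaller than those between libraries. No member of either class was past 1.5-fold, where 0.217% of all genes tested were higher and 0.031% lower. With so few calls among all genes, this absence is no result about the members. Above 0 were all 12 mitochondrial and 47 of 73 nuclear members, against 1606 of all 3224 genes tested. The mitochondrial to nuclear ratio was 0.954 in positive and 0.937 in negative cells, and the first over the second was 1.02 (0.998 to 1.04). Whether this interval held 1 depended on the random draw and the depth, as it was 1.03 (1.006 to 1.05) with another seed, 1.03 (1.0004 to 1.06) at 1000 UMIs and 1.05 (1.02 to 1.07) at 4000 UMIs. These intervals leave out the spread between cells, so one that lies above 1 is no evidence of a gap. The positive cells were deeper before thinning, with a median of 6541 against 5764 UMIs, and the part of depth in this was not tested. By complex, the ratio of nuclear UMIs in positive over negative cells was lowest in complex II, at 0.983 (0.901 to 1.07), and highest in complex V, at 1.05 (1.02 to 1.08), and these intervals overlap.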

How the data were processed

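The authors deposited raw UMI counts (genes by cells) of 3 libraries joined in 1 matrix. The submitters' processing notes name Cell Ranger 2.1.1 and mm10. Not given in the sources used here: annotation, cell calling, treatment of reads with several matches and any down-sampling. Doublets were excluded at the sort per the methods, and no doublet caller was run here. The labels and the methods name different versions of the reagent kit. Members and lists were chosen with earlier results of these data known. No suffix was given a time point, and no column was left out.

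Cells of at least 2000 UMIs were thinned to 2000 (seed 1) and summed per library. Calls used 1.5-fold, a pseudocount of 1 and a floor of 50 CPM (UMIs scaled to 1000000 per library). Levels have exact 95% Poisson intervals, shares Clopper-Pearson intervals and ratios conditional binomial intervals. For a count of 0 the limit was 3 counts. Total counts were 1343055, 24097543 and 19769170 UMIs. Positions and copies come from GENCODE M21 on GRCm38 and promoters from RefSeq, matched by symbol for 86 of 89 nuclear members. Genes named were all mitochondrial members, per complex the highest 2 and the lowest past the floor, the 3 highest and 3 lowest ratios per pair, isoform families and members without a UMI. In other lists the genes named had the highest or lowest ratio in a pair, and not all such genes are named. Further members were named after their values were seen: those below the floor and those with copies or motifs. The ratio step was tested on simulated counts. Alternatives were no thinning, 1000 or 4000 UMIs, a cell filter (at least 200 genes, 500 UMIs and at most 10% mitochondrial UMIs), another seed, other folds, floors and scalings, subunits only, and, chosen after seeing the data, cells of 2000 to just under 4000 UMIs and members without copied ends. Scripts ran on Python 3.11.15 with pandas 2.3.3, scipy 1.17.1 and numpy 2.4.6.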

Additional observations from a re-analysis of the deposited data

How the results depend on the processing

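In library 1 the mitochondrial to nuclear ratio moved from 0.829 to 0.939 without thinning, 0.934 at 1000 UMIs and 0.706 at 4000 UMIs, where 9 cells remain. In libraries 2 and 3 it was 0.934 and 0.951 at 4000 UMIs, 0.955 and 0.976 with subunits only, and 1.02 and 1.004 in cells of 2000 to just under 4000 UMIs. Without members with copied ends it was 0.416, 0.416 and 0.429 in libraries 1, 2 and 3. In library 2 over library 1, the nuclear members past the fold numbered 53 higher and 2 lower at a lower fold (0.32 on the log2 scale) and 5 higher at 2-fold, 1 lower at 1000 UMIs and 6 lower at 4000 UMIs, and the mitochondrial members 2 higher at 2-fold. In library 3 over library 1, the nuclear members numbered 18 higher and 5 lower at that lower fold, 0 and 0 at 2-fold, 12 higher and 3 lower at 1000 UMIs, 14 higher and 15 lower at 4000 UMIs, 0 lower when centred on the median of all genes, 2 lower with a floor of 10 CPM and 2 lower in cells of 2000 to just under 4000 UMIs. The mitochondrial members numbered 1 higher without thinning and at 1000 UMIs, 4 higher at 4000 UMIs and at that lower fold, and 0 at 2-fold. In library 3 over library 2, the nuclear members numbered 40 lower at that lower fold, 0 at 2-fold and 1 higher in cells of 2000 to just under 4000 UMIs, and 7 mitochondrial members were lower at that lower fold. In library 2, the mitochondrial to nuclear ratio of proliferation gene positive over negative cells was 1.02 (0.998 to 1.04) and became 1.05 (1.02 to 1.07) at 4000 UMIs, and its interval also lay above 1 with another seed and at 1000 UMIs. No cause was tested for these, beyond fewer cells at 4000 UMIs and other thresholds. The share of all genes called is not given for these other settings, so these counts are no result about the members. The cell filter, which removed only cells that thinning to 2000 UMIs also left out, changed no value. Depth in library 1 limits single genes: 3 counts are 3.68 CPM there and 0.42 and 0.457 in libraries 2 and 3. No paired analysis was possible because each group has 1 library, the cells carry no replicate number and no result comes from a test.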
